A study of Capra hircus with 3 samples.

Results

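DLK1 is 1 of the 16739 genes of a single-cell RNA table from goat fetal skin, and the text below follows its UMI counts, that is, its counts of distinct captured RNA molecules, through cell types and stages. The gene was chosen on its own values in these libraries, namely its spread over the mesenchymal cells of E60, the genes that went with it there and its loss by E120, so those values are a description and carry no test. The skin came from the back of Northern Shaanxi White Cashmere goat fetuses at embryonic days 60, 90 and 120, and at least 2 fetuses per stage were pooled before barcoding into 1 droplet library (10x Genomics 3′ chemistry, V3) per stage. Whole skin was dissociated with collagenase IV at E60 and E90, whereas at E120 follicles were picked out with forceps after the enzyme and then dissociated with a second reagent, so stage and preparation cannot be told apart there. No manipulation, transgene or treatment is given for any group. Intervals below are exact Poisson intervals for levels and Clopper-Pearson intervals for shares, both at 95%, except that a count of 0 is given the limit of 3 counts, and cover counting error only, not differences between fetuses.

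DLK1 (delta-like non-canonical Notch ligand 1, also known as preadipocyte factor 1) is a transmembrane protein with EGF-like repeats related to the Notch ligands but without the domain by which those ligands engage their receptors. Its outer part can be shed by the protease ADAM17, and the soluble form holds preadipocytes back from becoming fat cells. The gene is imprinted and expressed from the paternal copy, it is high in many fetal mesenchymal tissues and in developing muscle, and it becomes low in most tissues after birth.

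The E60 library held 6849 cells and 65049552 UMIs, E90 held 6931 cells and 30277663 UMIs, and E120 held 6896 cells and 93403291 UMIs. Median depth per cell was 8579, 3714 and 13064 UMIs in that order, and between 9 and 13 cell barcodes were shared between any pair of libraries. The table's 20676 cells stand beside 19705 stated for the series, and the filter behind the difference is not given in the sources used here. The cells were clustered with DLK1 left out of the clustering genes, and clusters were named from marker lists. The dermal-like class (fibroblast, condensate or papilla, tendon or cartilage, and preadipocyte markers) held 5958, 526 and 218 cells in the same order of stages. Its summed fibroblast markers stood at 11451, 7706 and 3172 CPM, that is, counts per 1000000 UMIs of the summed cells, and all 6 of these markers found in the table were detected at E60 and E90 and 5 of 6 at E120. At E90, 5084 cells stayed in unnamed clusters, nearly all of them in a cluster of 4923 cells in which keratin markers were found but mitochondrial and cell division genes led. Summed fibroblast markers in the unnamed E90 cells were 2777 CPM. Other E90 classes had 2596 (mast), 2371 (myeloid), 2117 (melanocyte), 1919 (endothelial), 1568 (epithelial) and 1512 CPM (erythroid). The unnamed value is thus near that of mast cells, and no dermal cells are read from it. Any dermal cells among the unnamed cells are outside the dermal-like class.

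In the whole E60 library DLK1 had 52549 UMIs, a level of 808 CPM (801 to 815). In the E90 library it had 1176 UMIs, a level of 38.8 CPM (36.7 to 41.1). In the E120 library it had 0 UMIs in 93403291, where 3 UMIs, the limit used here for a count of 0, would be 0.0321 CPM. The intervals of E60 and E90 do not overlap and both lie above that limit, and the order of the levels was E60, E90, E120. The E60 level was 20.8-fold that of E90 and at least 25151-fold higher than at E120, with the bound set at those 3 UMIs and the 0 taken as counted. At E120 only 3 genes were in 1 cell and 19 in 2 cells, against 387 in 3 cells, so a gene with 0 UMIs may have been in up to 2 cells before the table was made. The UMIs of such cells are not covered by the limit of 3 UMIs or by the bound.

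Among the 5982 genes with at least 10 CPM at E60 or E120, DLK1 had the second lowest difference between E120 and E60 on the log2(CPM + 1) scale, which understates the change of a gene at 0. LUM, a collagen-binding proteoglycan of the dermis, was the only gene below it on that scale, with 3337 CPM at E60 and 2.72 CPM at E120. Of the 1064 genes with at least 100 CPM at E60, 2 had no UMI at E120, and DLK1 was 1 of them. The genes named in this paragraph beside DLK1 were chosen after their values were seen. These ranks belong to the contrast by which the gene was chosen.

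By cells, a DLK1 UMI was present in 41.2% of the E60 library (40.1% to 42.4%), in 13.4% of E90 cells (12.6% to 14.2%) and in 0 of 6896 E120 cells, for which 3 cells would be 0.0435%. With each cell thinned to 2000 UMIs, so that depth is equal and no cell is lost, the shares were 21.6% at E60 and 7.01% at E90. The highest count in 1 cell was 193 UMIs at E60 and 17 UMIs at E90. At E90, 13 cells held 5 or more UMIs and 2 held 10 or more, against 994 and 923 cells at E60.

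DLK1 was thus uneven among E60 cells. With each E60 cell thinned to 6000 UMIs, which again left out no cell, 4571 cells (66.7%) had no DLK1 UMI and 1097 (16.0%) had 1. Of the others 232 had 2 to 4 UMIs, 77 had 5 to 9, 168 had 10 to 19, 450 had 20 to 49 and 254 had 50 or more. These ranges differ in width. Most cells thus had 0 or 1 UMI, and the rest formed a long tail up to 109 UMIs. The 872 cells with 10 or more made up 12.7% of the library (11.95% to 13.5%). The Fano factor, the variance over the mean, was 40.2 for DLK1, the 12th highest of 3956 genes with a mean of at least 0.1 UMI, whose median was 1.06.

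The high cells lay in 4 dermal-like clusters and in a small muscle cluster. Cluster 21 led by CCL11, CAPN6, MGP, SFRP1 and FRZB (281 cells) had the highest level, 7440 CPM (7331 to 7550), with a median of 48 UMIs per cell at 6000 UMIs (quartiles 34 and 58). In that cluster 99.3% of cells had 10 or more UMIs and none had 0. CCL11 encodes a chemokine, MGP an inhibitor of calcification, and SFRP1 and FRZB secreted antagonists of Wnt signalling.

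Cluster 10 (505 cells), led by SEMA3C, SMOC2, SERPINF1 and MFAP5 among others, had 4303 CPM (4241 to 4366). It was split: 61.6% of its cells had 10 or more DLK1 UMIs, 19.6% had none and 18.8% had 1 to 9. Its median was 22 UMIs and its quartiles were 1 and 44. SMOC2 and MFAP5 encode proteins of the extracellular matrix, and SERPINF1 encodes a secreted protein that restrains vessel growth.

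Cluster 33 (120 cells), in which cell division genes led together with NMU and FBLN7, had 3655 CPM (3558 to 3755) and 69.2% of its cells had 10 or more UMIs. Cluster 28 (187 cells), led by COL2A1, TNMD and THBS4, genes of cartilage and tendon, had 2627 CPM (2551 to 2705) and 57.2% such cells. These 4 clusters held 1093 cells, 16.0% of the library, and 87.1% of its DLK1 UMIs. They also held 780 of the 872 high cells, 89.4%.

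**Figure D1:**
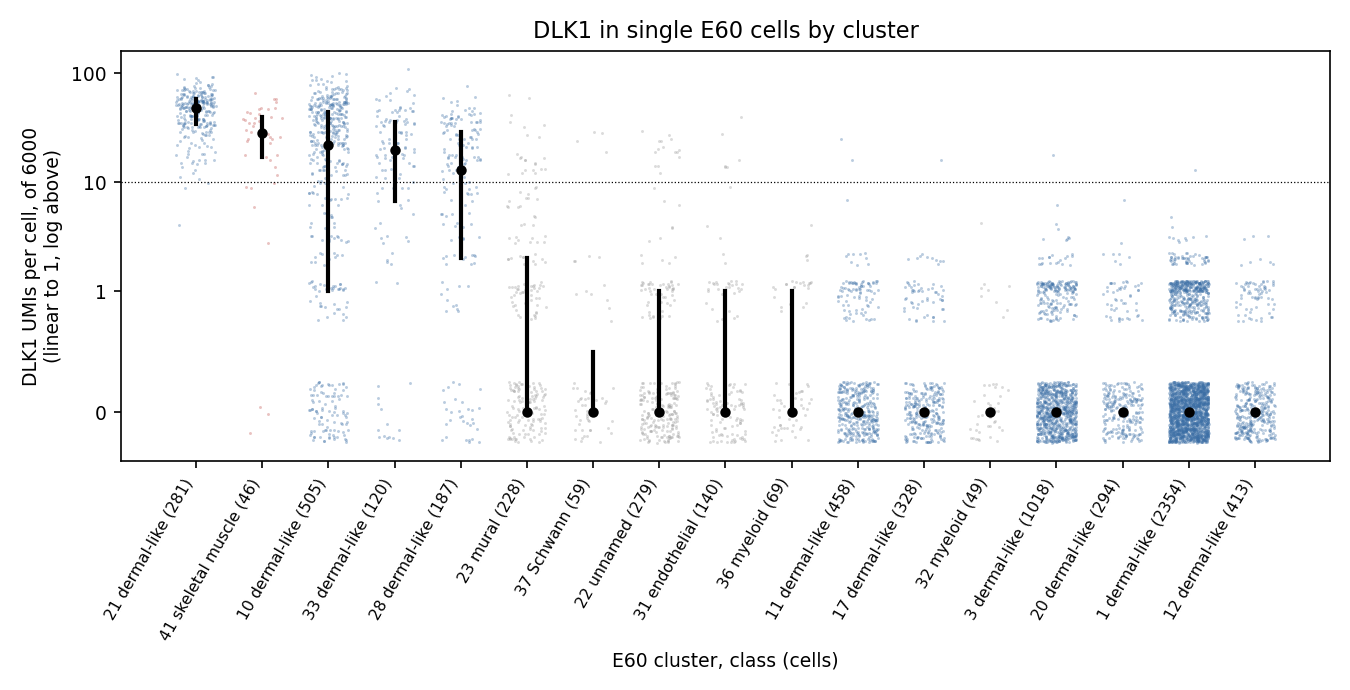
DLK1 UMIs in single E60 cells, each thinned to 6000 UMIs, by cluster in order of summed level, with class and number of cells on the x axis. The y axis is linear up to 1 and logarithmic above, points are cells with a small vertical jitter, black dots are medians, black bars join the quartiles and the dotted line marks 10 UMIs. Medians run from 13 to 48 UMIs in the 4 dermal-like clusters and the muscle cluster on the left and are 0 in every other cluster.

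The other 6 dermal-like clusters held most of the E60 dermal-like cells and almost no high cell. Their 4865 cells included 5 with 10 or more DLK1 UMIs. Cluster 1, the largest with 2354 cells and led by RCAN2 and TMEM35A, had 40.1 CPM (37.4 to 42.9). Cluster 3 (1018 cells), led by DKK1, a Wnt antagonist, had 44.4 CPM (39.9 to 49.2). Clusters 12, 20, 17 and 11 had 36.1, 41.9, 48.8 and 59.2 CPM. From cluster 12 to cluster 21, the lowest and the highest of 11 dermal-like or mural clusters, the level differed 206-fold.

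Free RNA in the droplets can give single UMIs to cells that do not express a gene, and the low clusters were compared with blood-derived cells for that reason. E60 myeloid cells, which should lack DLK1, had 62.8 CPM (49.2 to 79.0) and a share of 12.7% with a UMI at 2000 UMIs (median depth 8788). Cluster 1 had a share of 7.56% (median depth 8435) and cluster 3 a share of 8.15% (median depth 7432). The shares of the 6 low dermal-like clusters, 5.57% to 9.76%, were all below the myeloid share, and their levels were below the pooled myeloid level, although the interval of cluster 11 overlaps the myeloid interval and the myeloid cluster 32 (45.3 CPM) was lower than clusters 11 and 17. No expression is read from levels in this range, and the part of free RNA in them was not tested.

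The skeletal muscle cluster (46 cells), led by ACTC1, MYLPF and MYOG and with all 8 listed muscle markers found, had 4689 CPM (4487 to 4898). Of its cells 84.8% had 10 or more DLK1 UMIs and the median was 28.5. It ranked between clusters 21 and 10 and its interval overlaps neither. None of its 39 high cells was among the 6% of the library with the highest doublet scores, a measure of how much a cell looks like 2 cells in 1 droplet. With 46 cells it fell under the 50 cells set for the comparison of clusters.

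Intermediate levels were seen in 4 other groups. Mural cells, the contractile cells around vessels, had 502 CPM (472 to 532), Schwann cells 430 CPM (377 to 487), the unnamed cluster 22 (led by ALDH1A1, CADM3 and ANGPT1) 341 CPM (319 to 365) and endothelial cells 192 CPM (175 to 211). Cluster 22 was closest to the dermal fibroblast markers. The 281 unnamed E60 cells, 279 of them in cluster 22, had 21618 CPM of these markers, against 11451 CPM in the dermal-like class. The naming rule left cluster 22 out of that class, so it is missing from the split into high and low dermal-like clusters. The intervals of the mural and Schwann cells overlap, and those of the next neighbours in the order do not, down to the myeloid cluster 36 at 74.4 CPM, whose interval reaches that of cluster 11. The median cell of each of the 4 groups had 0 UMIs, so the sums came from few cells, 23 of 228 mural, 4 of 59 Schwann, 15 of 279 cluster 22 and 6 of 140 endothelial cells with 10 or more UMIs. Of these high cells, all 15 in cluster 22 were among the 6% with the highest doublet scores, against 3 of 23 mural (and 40 of the 205 other mural cells), 1 of 4 Schwann and 2 of 6 endothelial cells. In the dermal-like class the same held for 67 of 785 high cells and 246 of 5173 others.

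At E90 no class held a level near those of the E60 high clusters. DLK1 stood at 12.4 CPM (8.87 to 16.9) in dermal-like cells, from 40 UMIs in 526 cells. Epithelial cells had 30.9 CPM (26.0 to 36.4), mast cells 35.1 CPM (16.8 to 64.6), melanocytes 28.9 CPM (15.4 to 49.4), myeloid cells 24.4 CPM (8.96 to 53.1), endothelial cells 22.9 CPM (9.89 to 45.2) and unnamed cells 45.7 CPM (42.8 to 48.7). The dermal-like interval lies below those of the epithelial and unnamed cells and overlaps the endothelial, myeloid and melanocyte intervals, and it meets that of the mast cells only at its edge. At 2000 UMIs the dermal-like share was 3.61% (median depth 5767) and the myeloid share 3.51% (median depth 3405), with the epithelial share at 5.73% (median depth 4116). The myeloid share rests on 2 of 57 cells (0.428% to 12.1%). No dermal expression is read from the E90 value, and the part of free RNA in it was not tested.

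All 13 E90 cells with 5 or more DLK1 UMIs were in the unnamed clusters 0 and 16. Of these, 9 were in cluster 0 and 4 in cluster 16, and the highest, with 17 UMIs, was in cluster 16. That cluster held 192 E120 and 161 E90 cells, and its markers were read from the E120 cells only. Epithelial keratins were found and POSTN led in those E120 cells, and the kind of the E90 cells is not read from them. None of the 13 was among the 6% of the E90 library with the highest doublet scores. At E120 DLK1 had 0 UMIs in every class, including 218 dermal-like and 67 mural cells. The limit that 3 UMIs set was 2.04 CPM in the dermal-like cells and 0.129 CPM in the 1562 epithelial cells, so the depth behind a 0 was far lower in the dermis.

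**Figure D2:**
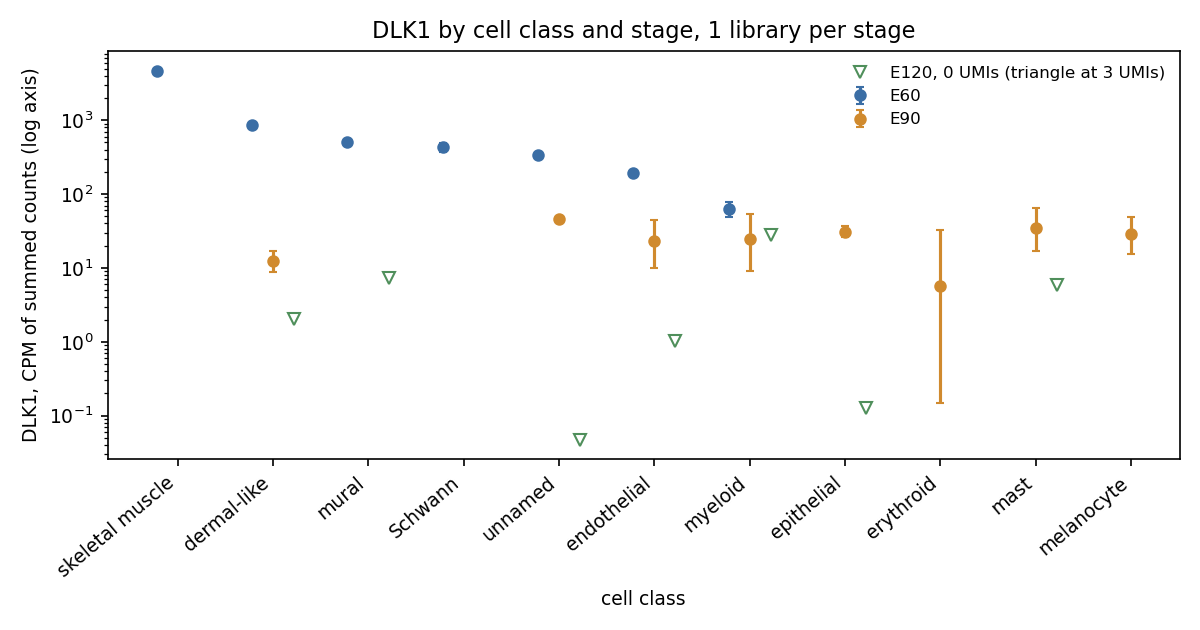
DLK1 level of summed counts in each cell class at E60, E90 and E120, in CPM on a logarithmic axis, 1 library per stage, classes with at least 20 cells. Bars are exact 95% Poisson intervals, and open triangles stand where 0 UMIs were counted, drawn at the level that 3 UMIs would give. E60 points run from 62.8 to 4689 CPM, all E90 points are under 50 CPM and all E120 points are triangles.

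In dermal-like cells alone DLK1 had 861 CPM (853 to 868) at E60, 69.3-fold the E90 level of 12.4 CPM. The E120 level, with 0 UMIs, was at least 422-fold lower than that of E60, with the bound at 3 UMIs in the 218 cells and the 0 taken as counted. The dermal-like cells of the stages were in different clusters, those of E60 in the 10 described above, those of E90 mainly in clusters 19 (290 cells) and 24 (233 cells) and those of E120 mainly in cluster 25 (210 cells), led by FGF7, APOD and RSPO2 and closest to the condensate or papilla markers. Stage and kind of dermal cell therefore cannot be told apart in these ratios. On the scale of log2(CPM + 1) the differences were -6.01 and -9.75. The median gene with at least 10 CPM moved by 0.46 and 0.33 on that scale, and by -0.40 and -0.30 with median-of-ratios scaling. Relative to the CPM medians the DLK1 differences were -6.47 and -10.08. Its E90 value ranked 4th lowest of 6580 genes. With 2 other clusterings, at resolution 2 and with each library clustered alone, the E90 dermal-like class grew to 1840 and 2231 cells and its level to 24.0 and 30.1 CPM, and the log2 difference became -5.21 and -5.27.

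The genes with the highest correlation with DLK1 in E60 dermal-like cells were ASPN, ANGPTL1 and MFAP5, and the lowest was that of BASP1. Pearson's r was computed over the 5958 cells on log values at 6000 UMIs, for 5123 genes in at least 5% of these cells. The cells share 1 library, its depth and its mix of clusters, so r is a description and carries no p. Of the 5123 genes, 494 (9.64%) had an r of at least 0.1 and 403 (7.87%) an r of -0.1 or lower.

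The highest r was 0.82 for ASPN, the matrix proteoglycan asporin. ANGPTL1, a secreted relative of the angiopoietins, followed with 0.78, and MFAP5, a glycoprotein of elastic microfibrils, with 0.77. CLEC3B (tetranectin) had 0.75, PCOLCE, an enhancer of procollagen processing, 0.75, and SERPINF1 0.74. The growth factors PTN (pleiotrophin) and IGF1 had 0.73 each. SMOC2 had 0.69, the transcription factor gene ZFHX4 0.69, GAS6, a ligand of receptor tyrosine kinases, 0.68, and SFRP1 0.66.

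The lowest r was -0.44 for BASP1, and RPS20 (a ribosomal protein), HS3ST6, CHCHD10, CDH6 (a cadherin), SNRPD3, CRABP1 and BCL11B lay between -0.44 and -0.40. CRABP1, a cytoplasmic carrier of retinoic acid, was nevertheless at its highest in cluster 10, with 6702 CPM, and at 1240 CPM in cluster 21, against 4061 CPM in cluster 1. The 2 clusters with the most DLK1 UMIs thus stood on opposite sides of cluster 1 in CRABP1. BCL11B, a zinc finger gene, was at 64.6 CPM in cluster 10 and 45.1 CPM in cluster 21, against 313 CPM in cluster 1.

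The r over all dermal-like cells includes the differences between clusters. The mean of r within clusters was 0.12 for ASPN and 0.13 for CLEC3B and for PTN, and 6 genes reached 0.1 (ASPN, ANGPTL1, MFAP5, CLEC3B, PTN and IGF1). That mean includes the 6 low clusters, in which DLK1 counts hardly vary. Within the high clusters 10, 21, 28 and 33, r was 0.47, 0.19, 0.51 and 0.40 for ASPN. For CLEC3B it was 0.63, 0.37, 0.42 and 0.53 in the same order. Both genes thus went with DLK1 inside each of the 4 clusters as well.

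The same order of clusters gave 0.61, 0.23, 0.39 and 0.35 for PTN and 0.60, 0.16, 0.18 and 0.44 for ANGPTL1. For MFAP5 it gave 0.56, 0.32, 0.46 and 0.47, and for PCOLCE 0.28, 0.48, 0.28 and 0.29. SMOC2 and SERPINF1 differed between clusters, with -0.10, 0.30, 0.46 and -0.05 for SMOC2 and 0.04, 0.24, -0.05 and 0.15 for SERPINF1. Both are leading genes of cluster 10, where DLK1 ranged from 0 to 101 UMIs. BASP1 was negative in all 4 clusters, with -0.42, -0.25, -0.26 and -0.37. Over the pooled 1093 cells, which mix clusters of different levels, CLEC3B had an r of 0.62, MFAP5 0.52, ANGPTL1 0.51, PTN 0.49 and GAS6 0.49, and SERPINF1 had -0.04 and SMOC2 -0.01.

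**Figure D3:**
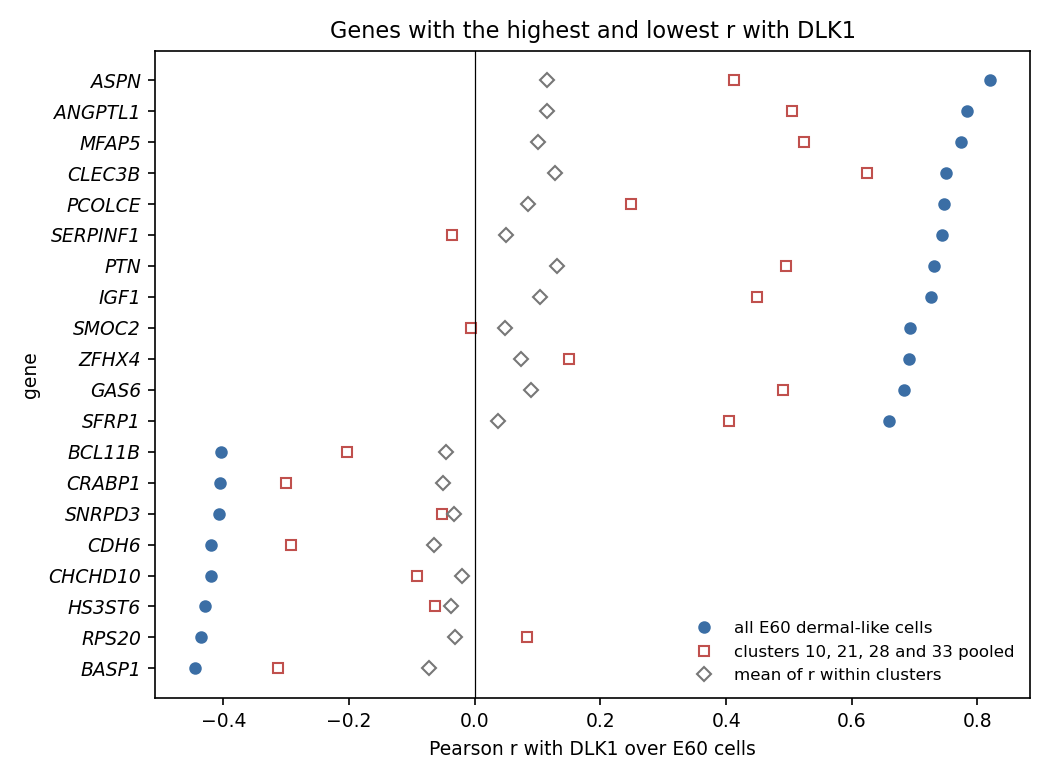
Pearson r with DLK1 for the 12 genes with the highest and the 8 with the lowest r over E60 dermal-like cells. Filled circles are r over all 5958 cells, open squares r over the pooled clusters 10, 21, 28 and 33, and diamonds the mean of r within clusters. SERPINF1 and SMOC2 are near 0 in the pooled clusters, whereas CLEC3B stays at 0.62.

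The muscle cluster did not share these genes. Summed over the 12 genes with the highest r, the level was 12671 CPM in cluster 10, 14907 in cluster 21, 9235 in cluster 28 and 9371 in cluster 33. In the muscle cluster the sum was 379 CPM, within the range of 291 to 543 CPM seen in the 6 low dermal-like clusters, although its DLK1 was as high as that of cluster 10. ASPN had 16.2 CPM there and MFAP5 11.6 CPM, against 1529 and 2012 CPM in cluster 10. At 6000 UMIs per cell, high muscle cells had a median of 2 UMIs of the 12 genes and high dermal-like cells a median of 85.

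By the same count, the 23 high mural cells had a median of 28 UMIs of the 12 genes, against 10 in the 205 other mural cells. In Schwann cells the medians were 42.5 and 5, and in endothelial cells 53.5 and 23. High cells in these 3 classes thus carried more of the dermal correlates than their neighbours. Their doublet scores are given above, and the part of mixed droplets in these sums was not tested.

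**Figure D4:**
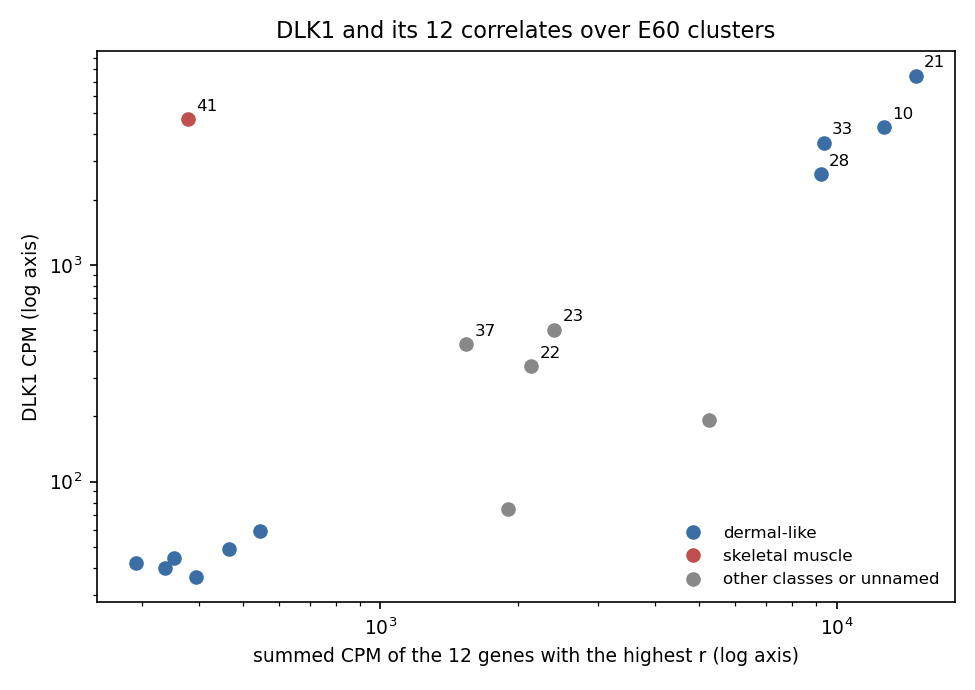
DLK1 level against the summed level of the 12 genes with the highest r, both in CPM on logarithmic axes, for E60 clusters of at least 50 cells and the muscle cluster of 46 cells, with numbers on clusters of at least 300 CPM DLK1. The muscle cluster 41 has 4689 CPM DLK1 at a sum of 379 CPM, and the 4 high dermal-like clusters have sums of 9235 to 14907 CPM.

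Over all clusters with at least 50 cells from the 3 libraries, the pattern of log2(CPM + 1) most like that of DLK1 was that of MFAP5 (r of 0.94), followed by NRK, a kinase gene (0.89), ANGPTL1 (0.89), DISP1, which serves the release of Hedgehog proteins (0.88), and CILP, a matrix protein of cartilage (0.88). These points share libraries and depth. NRK had 396 CPM in cluster 10, 185 CPM in the muscle cluster and 44.3 CPM in cluster 1. DISP1 was also higher in the muscle cluster than in cluster 1, with 23.1 against 8.28 CPM, whereas MFAP5 (11.6 CPM), CILP (4.62 CPM) and ANGPTL1 (0 UMIs) were not.

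The correlates were then followed to the later stages. In dermal-like cells 7 of the 12 were at least 2-fold lower at E90 than at E60 and 1 was higher, beside 5.9% and 34.7% of all genes. At E120 8 were lower and 3 higher, beside 8.44% and 25.2%. The 12 genes were picked on their E60 values, whereas those shares include genes that reach 10 CPM only at the later stage. Lower later levels are thus partly built in, and the counts are a description only. In whole libraries 9 of 12 were at least 2-fold lower at E90 and 1 higher, and at E120 11 were lower and 0 higher. By any amount, 11 of 12 were below their E60 level at E90 and 12 of 12 at E120. For whole libraries no share over all genes is given, and lower later levels are partly built in there too. The make-up of the libraries also changed, since the dermal-like class shrank from 5958 to 526 and then 218 cells. Its part in the whole-library counts was not tested, and no course shared with DLK1 is read from them. Summed over the 12 genes, E60 dermal-like cells had 2447 CPM (2434 to 2460), E90 cells 2044 CPM (1995 to 2094) and E120 cells 3087 CPM (2998 to 3178). For every 100 UMIs of these genes DLK1 had 35.2 UMIs in the first stage, 0.607 in the second and 0 in the last. Without SFRP1 the sums were 2406, 2029 and 1960 CPM, so the higher E120 sum came from that gene. Over the whole libraries, whose make-up changed as given above, the sums of the 12 genes were 2484, 985 and 237 CPM.

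Single members differed. IGF1 had 70.3, 494 and 332 CPM at E60, E90 and E120, and SFRP1 41.7, 15.2 and 1127 CPM. CLEC3B stayed between 480 and 622 CPM and PCOLCE had 363, 195 and 799 CPM. MFAP5 went from 332 to 130 and 15.6 CPM, ANGPTL1 from 65.3 to 43.5 and 2.04 CPM, and SMOC2 from 207 to 30.4 and 22.4 CPM. ASPN had 330, 466 and 63.9 CPM, and PTN 204, 25.5 and 83.0 CPM. SERPINF1 had 140, 12.1 and 49.6 CPM and GAS6 88.9, 9.31 and 18.4 CPM. ZFHX4 was at 125, 1.55 and 12.2 CPM, the lowest E90 value of the 12. At E120 the summed hair shaft and inner root sheath markers in dermal-like cells were 2486 CPM (0 of 7 markers at 0), against 10.6 CPM at E90 and 0.0360 CPM at E60. Summed epithelial markers were 0.523, 881 and 146 CPM over the stages, and their part in the stage differences was not tested.

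**Figure D5:**
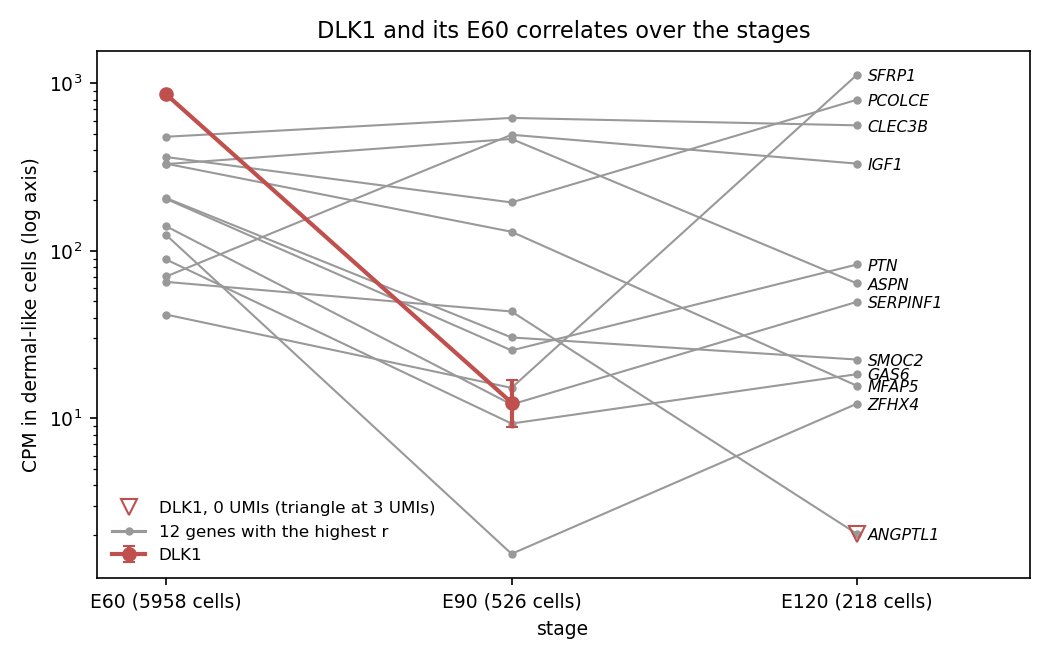
Levels in dermal-like cells at E60, E90 and E120 in CPM on a logarithmic axis, with DLK1 in red (bars are exact 95% Poisson intervals, the open triangle marks 0 UMIs drawn at the level of 3) and the 12 genes with the highest r at E60 in grey, without intervals. DLK1 goes from 861 to 12.4 CPM and 0 UMIs, while CLEC3B, IGF1, PCOLCE and SFRP1 end between 332 and 1127 CPM.

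Genes of the Notch pathway were next compared, since DLK1 is a relative of the Notch ligands. Of 29 listed genes 25 were in the table and 7 were common enough for an r at E60. NOTCH3, a receptor known from mural cells, had 0.25, RBPJ, the DNA-binding factor of the pathway, 0.13, and no member was at -0.1 or lower, beside backgrounds of 9.64% and 7.87%. These r include the differences between clusters. Inside clusters 10, 21, 28 and 33, r was 0.004, -0.02, 0.16 and 0.13 for NOTCH3. For RBPJ it was 0.07, 0.05, 0.08 and 0.05. NOTCH3 was at 64.6 CPM in cluster 10 and 70.1 CPM in cluster 21 against 9.30 CPM in cluster 1, and was higher still in mural cells with 385 CPM and in muscle cells with 201 CPM. The ligand DLL1 was at 46.2 CPM in muscle cells and under 10 CPM in every dermal-like cluster, and JAG1 was at 33.7 CPM in cluster 10 and 23.0 CPM in cluster 21, against 17.5 CPM in cluster 1 and 57.3 CPM in cluster 3, with an r of -0.02.

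The closest relative, DLK2, had 0.277 CPM in the whole E60 library, 5.12 in the E90 library and 5.16 in the E120 library, so its levels ran the other way from those of DLK1. In dermal-like cells it had only 12, 4 and 0 UMIs. Of 13 Notch genes with at least 10 CPM at E60 or E90 in dermal-like cells, 9 were at least 2-fold higher at E90 (8 after centring on the median of all genes), where 34.7% of all genes were (22.7% after centring), and none was 2-fold lower, where 5.9% of all genes were (1 and 13.3% after centring). JAG2 went from 0.811 to 23.0 CPM, HEY2 from 1.37 to 20.8, HES1 from 32.6 to 290 and HEY1 from 1.05 to 16.1 CPM, and the 3 last are targets of the pathway. JAG2, HEY2 and HEY1 passed the filter of 10 CPM only through E90, so they could only be counted as higher. With 50 CPM in place of 10, 3 members were counted as higher at E90. At E120, 7 of 11 members were at least 2-fold higher (25.2% of all genes), with HEY2 at 326 CPM and HEY1 at 62.6 CPM, and RBPJ was at least 2-fold lower at 93.9 CPM against 239 CPM (8.44% of all genes). After centring the counts were again 7 and 1, beside 18.3% and 13.7% of all genes. HES1, HEY1 and the JAG genes are also expressed in epithelium, whose markers differed between the stages as given above.

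Of the genes for shedding and binding, ADAM17 had 4.45, 25.5 and 23.1 CPM in dermal-like cells of the stages in order, and its level in the high clusters (4.75 CPM in cluster 10 and 4.18 in cluster 21) was near that of cluster 1 (4.31). FN1 (fibronectin), which DLK1 can bind, was the 1 of 7 listed genes, 5 of them in the table, with an r, at -0.11. In dermal-like cells 2 of 3 tested genes of the list were at least 2-fold higher at E90 (ADAM17 and MFAP2; 1 of 3 after centring), beside 34.7% of all genes (22.7% after centring). At E120 2 of 3 were higher (ADAM17 and FN1), beside 25.2%. ADAM17 passed the filter of 10 CPM only through the later stages, so it could not be counted as lower.

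The adipogenesis list held both signs. KLF4 had an r of 0.35 and ZNF423, a determinant of preadipocytes, 0.23, whereas PPARG, the main regulator of fat cell formation, had -0.13 and CEBPD -0.11. These r include the differences between clusters. Inside clusters 10, 21, 28 and 33, r was 0.02, 0.09, 0.14 and 0.07 for KLF4. ZNF423 had 0.14, 0.06, 0.11 and 0.16, and CEBPD -0.08, -0.04, 0.03 and -0.34. PPARG was at 5.46 CPM in cluster 10 and 6.26 CPM in cluster 21, against 42.4 CPM in cluster 1. SOX9, known as a gene induced by DLK1 in preadipocytes, went from 5.42 CPM in E60 dermal-like cells to 88.5 and then 136 CPM. In all, 5 of 9 tested members were at least 2-fold higher at E90 (FOXO1, SOX9, KLF5, PDGFRA and KLF4) and 2 lower (DGAT2 and CEBPD), beside 34.7% and 5.9% of all genes. At E120 5 of 9 were higher and none lower (1 lower after centring), beside 25.2% and 8.44%. SOX9 passed the filter of 10 CPM only through the later stages, so it could not be counted as lower. The same holds for any other member under 10 CPM at E60. ADIPOQ, LPL and PLIN1, genes of mature fat cells, were under 2 CPM at every stage.

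Imprinted genes outside the locus were compared next. Of 7 with an r, 4 were at 0.1 or more, namely CDKN1C (0.46), IGF2 (0.44), SGCE (0.24) and MEST (0.26), and none was at -0.1 or lower, where 9.64% and 7.87% of all genes were. These r include the differences between clusters. Inside clusters 10, 21, 28 and 33, r was 0.25, 0.19, 0.26 and 0.22 for CDKN1C. For IGF2 it was 0.05, 0.17, 0.17 and 0.12. SGCE had 0.01, 0.09, 0.03 and 0.07, and MEST 0.01, 0.05, 0.20 and 0.09. CDKN1C, an inhibitor of the cell cycle, had 1614 CPM in cluster 10, 1200 in cluster 21 and 331 in cluster 1, and 2933 CPM in the muscle cluster. IGF2, a fetal growth factor, had 108 CPM in cluster 10, 118 in cluster 21 and 6.10 in cluster 1, and 116 CPM in the muscle cluster. CDKN1C and IGF2 thus had raised levels in the muscle cluster as well, unlike ASPN and MFAP5. Their stage course differed from that of DLK1, with 546, 457 and 430 CPM for CDKN1C and 26.7, 18.0 and 99.98 CPM for IGF2 in dermal-like cells. IGF2R was the 1 of 7 members at least 2-fold higher at E90 and none was lower (4 after centring), beside 34.7% and 5.9% of all genes (22.7% and 13.3% after centring). At E120 IGF2 was higher and MAGEL2 lower of 6 (2 lower after centring), beside 25.2% and 8.44% (18.3% and 13.7% after centring).

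In the RefSeq gene order of assembly ARS1.2, used here for names and neighbours only, DLK1 lies between BEGAIN and an unnamed locus, followed by RTL1 and DIO3, which were not analysed here. BEGAIN was in too few cells for an r, with 6.09, 2.05 and 0.803 CPM in the whole libraries. Its E60 UMIs numbered 83 in cluster 10 and 82 in cluster 21, levels of 19.7 and 34.2 CPM, against 22 UMIs and 1.07 CPM in cluster 1 and 4 UMIs (9.24 CPM) in the muscle cluster. The more distant neighbours WARS, EVL, YY1, PPP2R5C, DYNC1H1 and HSP90AA1 had an r between -0.04 and 0.03. None of the tested neighbours was 2-fold different at E90 (6 tested) or E120 (7 tested), before or after centring. Of all genes 5.9% were lower and 34.7% higher at E90, and 8.44% lower and 25.2% higher at E120. With so few genes tested, no stability of the locus is read from these counts.

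The dermal sublists divided. Of 7 genes of the reticular dermis or hypodermis with an r, 4 were at 0.1 or more (MFAP5, SMOC2, COL11A1 with 0.56 and DPT with 0.11) and PPARG was below -0.1, while of 9 papillary genes none was at 0.1 and 3 were below -0.1 (CRABP1, APCDD1 with -0.38 and LEF1 with -0.19). APCDD1, a Wnt inhibitor, was at 157 CPM in cluster 10 and 237 CPM in cluster 21 against 1675 CPM in cluster 3. Of 18 genes of the dermal matrix 12 were at 0.1 or more and 3 below -0.1, with a median r of 0.29 beside -0.01 over all genes. Over all genes, 9.64% were at 0.1 or more and 7.87% at -0.1 or lower, beside the counts of these 3 lists. COL1A1 had 0.61, COL12A1 0.59 and COL1A2 0.56, whereas TNC, an adhesion-modulating matrix protein, had -0.28. These r include the differences between clusters. Inside clusters 10, 21, 28 and 33, r was 0.30, 0.21, -0.20 and 0.06 for COL1A1. For COL1A2 it was 0.23, 0.29, -0.33 and 0.03, and for COL12A1 0.07, 0.04, 0.06 and 0.07. COL11A1 had 0.27, 0.02, -0.17 and -0.04, and TNC -0.59, -0.05, 0.17 and -0.32. ASPN, MFAP5 and SMOC2 are also among the 12 genes ranked by r.

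Growth regulators held 4 members at 0.1 or more (IGF1, IGF2, IGFBP7 with 0.39 and GPC3 with 0.23) and 4 below -0.1 (SOX4 with -0.30, IGFBP5, TCF4 and CCND1) of 10, beside 9.64% and 7.87% of all genes. None of 10 genes of mitosis and S phase passed in either direction, with a median r of -0.03, and for 10 genes that count is not far from those shares. Of 4 genes of the myogenic and osteochondral list 2 were at 0.1 or more, TNMD (0.47) and DES (0.17), and none at -0.1 or lower, beside the same shares. These r include the differences between clusters. Inside clusters 10, 21, 28 and 33, r was -0.01, -0.01, -0.49 and -0.47 for TNMD. For DES it was 0.03, 0.09, 0.08 and -0.01. Cycling cells were found on both sides: TOP2A was at 1600 CPM in the DLK1-high cluster 33 and at 1904 CPM in the DLK1-low cluster 17.

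Between the stages, dermal-like cells had at E90 7 of 13 papillary genes at least 2-fold higher and 1 lower, 1 of 8 reticular genes higher and 2 lower, and 6 of 18 matrix genes higher and 4 lower (2 and 6 after centring). At E120 the counts were 6 of 12 papillary genes higher and 1 lower (5 lower after centring), 4 of 9 reticular genes higher and 3 lower (3 and 4 after centring), and 3 of 18 matrix genes higher and 7 lower (9 lower after centring). Growth regulators were higher in 6 of 13 and lower in 2 at E90 (5 and 4 after centring), and higher in 7 and lower in 3 of 13 at E120 (7 and 5 after centring). Mitosis genes were lower in 5 of 10 at E90 and in 4 of 10 at E120 (7 and 5 after centring), and higher in 1 and 0 (0 and 0 after centring). The myogenic and osteochondral genes were higher in 3 of 6 and lower in 3 at E90, and higher in 4 and lower in 2 of 7 at E120. These counts stand beside the shares over all genes given above and rest on 526 and 218 cells of 1 library each. Members under 10 CPM at E60 entered them only through the later stage and could not be counted as lower.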

How the data were processed

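The deposited table held natural log values of 20676 cells. Per the values themselves, the authors scaled each cell to 10000, added 1 and took natural logs. UMI counts were recovered by inverting this, and 100% of nonzero values came out whole within 0.01 when the lowest value of a cell was taken as 1 UMI. The planned design had assumed counts, and all sums are of recovered counts. Cell Ranger 3.0.2 was used, per the submitters' processing notes. The genome build, annotation and cell filters are not given in the sources used here. All table columns were used (0 left out).

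All cells were clustered without correction between libraries on 2000 variable genes without DLK1, scaled to unit variance, with 30 principal components, 20 neighbours and Leiden resolution 1 (leidenalg 0.10.2, igraph 0.11.9, scikit-learn 1.9.0, numpy 2.4.6, scipy 1.17.1, Python 3.11.15), which gave 43 clusters. Markers and leading genes of a cluster were read only from its cells of the library that gave most of them. A marker counted when it was in at least 10% of these cells, at 2 times its median over clusters and at 0.5 times its library's level. At least 3 markers were needed, and a cluster whose 10 leading genes held more markers of another class, or at least 3 mitochondrial or haemoglobin genes, stayed unnamed. This scoring was chosen after seeing the data. Doublets were left in. Doublet scores came from 2 simulated doublets per cell, and removal of the 6% highest per library was an alternative.

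Levels are CPM of summed counts. Stage differences are log2 ratios of CPM + 1, and a gene was counted when 2-fold different and at 10 CPM or more in either sum. A gene under 10 CPM at E60 thus entered only through the later stage and could not be counted as lower there. Bounds use a floor of 3 counts per sum. No test was possible, since each stage was 1 library. The text names DLK1, the 12 genes with the highest and 8 with the lowest r, the 5 with the most similar pattern over clusters (at least 50 CPM in 1), and of each of 11 lists at most 4 members past the rule in each direction, besides DLK1's relatives, neighbours and partners. Further list members named are chosen to complete a count or after their values were seen. DLK1, the lists and the markers were chosen with earlier results of these data known. The ratio and correlation scripts were tested on simulated data. Alternatives changed the pseudocount, scaling, resolution, cell filters, thinning depth and measure of correlation.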

Additional observations from a re-analysis of the deposited data

How the results depend on the processing

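The log2 difference of DLK1 between E60 and E90 kept its sign under all alternatives run, and its size moved. Both differences to E120 are negative by construction under every alternative, since DLK1 had 0 UMIs there, and only their size could move. In whole libraries E90 over E60 (-4.34) was -4.07 with a pseudocount of 10 CPM, -4.85 with median-of-ratios scaling and -4.45 as a mean over cells, E120 over E60 (-9.66) was -12.98 with a pseudocount of 0.1, -6.35 with 10, -9.83 with scaling and -9.78 over cells, and E120 over E90 was -8.61, -2.29 and -4.98 with the pseudocounts and scaling. In dermal-like cells E90 over E60 was -5.28 with a pseudocount of 10, -6.74 with scaling, -5.21 at resolution 2 and -5.27 with libraries clustered alone. There E120 over E60 was -13.07, -6.44, -10.16 and -9.87 (pseudocounts 0.1 and 10, scaling, mean over cells), -9.86 at resolution 2, -9.87 without high doublet scores, -9.84 with the filter of 1000 genes and 10% mitochondrial UMIs, -10.23 with libraries alone and -9.82 with unscaled clustering genes, an alternative chosen after seeing the data. E120 over E90 was -6.97, -1.16, -4.65 and -4.96 with both pseudocounts, resolution 2 and libraries alone. With 0 UMIs at E120, the pseudocount sets the size of these ratios by construction.

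The E60 level was 880 CPM as a mean over cells, and the shares with a UMI at 1000 UMIs were 17.5% and 3.92% at E60 and E90. The highest E60 cluster was at 7852 CPM as a mean over cells, 5431 at resolution 0.5 (with 2 clusters at 1000 CPM or more in place of 4), 5843 without high doublet scores, 7192 with the filter and 8191 unscaled. E60 dermal-like and all other cells were at 838 and 558 CPM at resolution 0.5, 928 and 282 at resolution 2, 846 and 569 with DLK1 among the clustering genes, 935 and 260 without high doublet scores, 916 and 331 with the filter, 1202 and 177 with libraries alone and 903 and 318 unscaled. E90 dermal-like cells were at 24.0 CPM at resolution 2 and 30.1 with libraries alone, and other E90 cells at 45.1 with the filter. The causes were not tested. As a mean within clusters 6 genes had an r of 0.1 or more and 0 an r of -0.1 or lower. Notch genes higher at E90 numbered 3 at 50 CPM or more, and matrix genes higher numbered 2 at 4-fold and 2 after centring. No paired analysis was possible because each stage was 1 library.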
